A study of Mus musculus with 10 samples.

Results

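The nuclear subunits of respiratory complex I were described in reactive cholangiocytes, bile duct epithelium that expands after liver injury. Members were the genes whose symbol is Nduf, then a, b, c, s or v and a number, together with *Ndufab1*. The rule took 37 of the 49568 genes in the data, and all 37 passed the minimum for testing. The cells came from 5 *Smad4del* mice, labelled Smad4fl/fl, and 5 *Ctl* mice, labelled Smad4wt/wt. By the methods, *Smad4del* mice carried *Alb-Cre*, a recombinase driven by the albumin promoter of liver epithelium, with floxed *Smad4*, and *Ctl* mice lacked *Alb-Cre*, so that Cre itself and loss of *Smad4* cannot be told apart. Whether the *Ctl* mice carried floxed alleles is not settled by the sources used here. All 10 mice had a mixed genetic background and received the bile duct toxin DDC at 0.1% of the diet for 2 weeks. Livers were digested, live cells were sorted for the epithelial protein EPCAM and against the leukocyte protein CD45 and the erythroid protein TER119, and each mouse gave 1 RNA library. Age and sex are not given in the labels, and the mouse numbers of the labels, used here as names, fall into a series starting with A52 (3 *Smad4del* and 3 *Ctl* mice) and a series starting with A54 or A56 (2 and 2). What the numbers stand for is not given.

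Complex I, or NADH:ubiquinone oxidoreductase, takes electrons from NADH into the mitochondrial respiratory chain and pumps protons out of the matrix. It is an L-shaped enzyme, with a matrix arm that holds the flavin and the iron-sulphur clusters and a membrane arm that holds the proton pumps. The pumps are encoded by mitochondrial DNA. The genes described here encode the remaining core subunits, all in the matrix arm, and the accessory subunits that surround the core and stabilise it. The rule also takes *Ndufa4*, named as a complex I subunit and later placed in complex IV.

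Libraries held 16734672 to 19710560 reads on genes in *Smad4del* mice and 16249719 to 21277339 in *Ctl* mice. *Smad4* had 687 to 1031 normalized counts in *Smad4del* mice and 2969 to 3714 in *Ctl* mice, with a log2 fold change of -1.96 (limma adjusted p = 1.09e-05). All 16 cholangiocyte markers were detected, with a mean level (the mean of log2(normalized count + 1) over the list) of 13.24 to 13.56 in *Smad4del* mice and 12.93 to 13.43 in *Ctl* mice, and 3 of them were higher and 1 lower in *Smad4del* mice. Markers of other cells were detected too. Of 14 endothelial markers, 13 were lower in *Smad4del* mice, and their level did not overlap (8.66 to 9.98 in *Smad4del* mice, 10.43 to 11.99 in *Ctl* mice). The 14 macrophage markers stood at a mean level of 7.13 to 11.8 in *Smad4del* mice and 8.92 to 13.9 in *Ctl* mice. Of these 0 passed the test after adjustment, while all 14 had a log2 fold change below 0 (median -2.48) and an unadjusted limma p under 0.05. The 12 hepatocyte markers, of which 0 passed, stood at 9.95 to 11.2 in *Smad4del* mice and 9.63 to 10.6 in *Ctl* mice. Of these 10 had a log2 fold change above 0 (median of the 12 0.40), and 5 had an unadjusted limma p under 0.05. Of 12 mitosis genes 8 were higher in *Smad4del* mice, and their level did not overlap (8.431 to 8.865 in *Smad4del* mice, 7.148 to 8.162 in *Ctl* mice). Of 10 stellate and fibroblast markers 2 were lower in *Smad4del* mice. All 10 had a log2 fold change below 0 (median -0.88), and 6 had an unadjusted limma p under 0.05. Their level did not overlap either (8.389 to 8.889 in *Smad4del* mice, 8.975 to 10.82 in *Ctl* mice). Of 10 lymphocyte markers 6 had a mean under 10 normalized counts, and 1 of the other 4 was lower in *Smad4del* mice. Of 6 erythroid markers 1 was listed at 0 in all mice, and 0 of the 5 tested passed.

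Values are normalized counts, that is reads on a gene divided by 1 size factor per mouse, and log2 fold changes are differences in mean log2(normalized count + 1), *Smad4del* minus *Ctl*. The complex I subunits were abundant transcripts. Per kb of the longest principal GENCODE M21 transcript, *Ndufa4* had the highest level over the 10 mice (7438 normalized counts per kb), followed by *Ndufb9* (3573). *Ndufb9* is an accessory subunit of the LYR motif family that binds the acyl carrier protein. The lowest levels per kb were those of *Ndufb2* (67.9), *Ndufs5* (79.4), *Ndufab1* (202) and *Ndufb4* (235). Of the distinct windows of 100 bases in the protein-coding transcripts of a gene, 33.4% in *Ndufb4*, 19.9% in *Ndufs3*, 17.7% in *Ndufa12*, 12.7% in *Ndufs5* and 7.18% in *Ndufab1* also stood in a transcript of another gene. Genes whose exons overlap those of the member were left out of this share. Reads of these 5 members may be split with copies, and their values are uncertain. The *Ndufs5* copy *BC002163* averaged 343.8 normalized counts in *Smad4del* mice and 292.7 in *Ctl* mice. In 16 members an exon overlaps another gene, mostly antisense, and the counting is not stated to use strand.

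**Figure D1:**
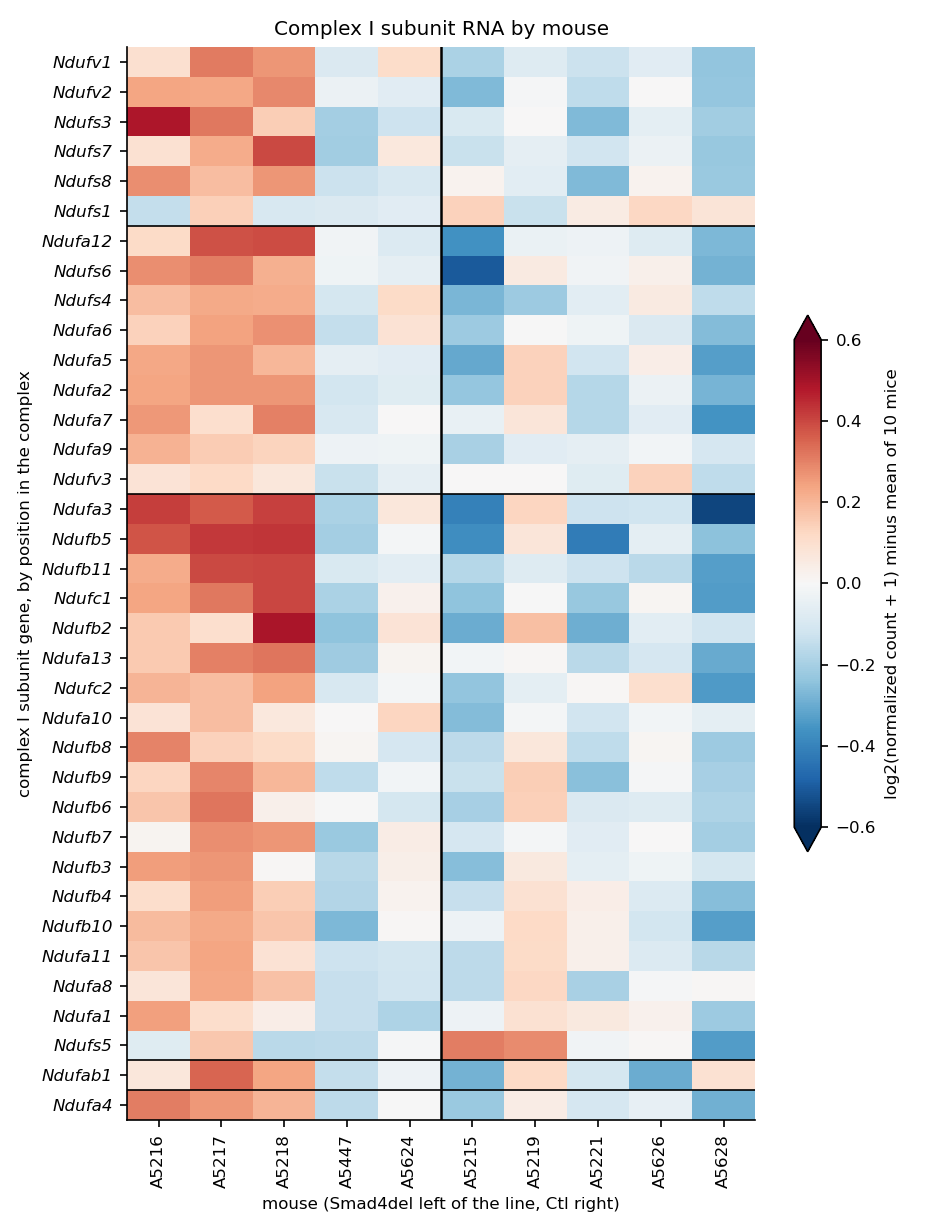
RNA level of 36 complex I subunits (rows, by position in the complex) in 10 mice (columns, *Smad4del* left of the vertical line and *Ctl* right of it); colour is log2(normalized count + 1) minus the mean of the gene over 10 mice. Most rows are red in mice A5216, A5217 and A5218 and pale or blue in A5447, A5624 and the *Ctl* mice.

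To ask whether complex I RNA differed with loss of *Smad4*, the subunits were compared between cohorts. None of the 37 passed the test: 0 were higher and 0 lower by limma at an adjusted p of 0.05, where 2.43% of all 14870 genes tested were higher and 4.69% lower. By edgeR on recovered reads the count higher was also 0, where 2.1% of all genes were. At an unadjusted p of 0.05, 13 subunits were higher in *Smad4del* mice by limma, where 12.3% of all genes were, and 16 by edgeR, where 12.7% of all genes were. The log2 fold change was above 0 in 35 of 37 subunits, against 49.4% of all genes tested, and its median was 0.21 over the subunits and -0.0050 over all genes tested. The subunits, apart from *Ndufa4*, are part of 1 enzyme, and the values of the family move together between mice, so they do not count as separate observations. By DESeq2 2 subunits were higher, *Ndufv1* (adjusted p = 0.0240) and *Ndufb11* (adjusted p = 0.0348), where 6.03% of all genes were. Without mouse A5217 this count was 0, where 3% of all genes were higher.

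Summed over the 37 genes, *Ndufa4* included, the family made up 64118 ± 6947 normalized counts in *Smad4del* mice and 55460 ± 3589 in *Ctl* mice (SD, n = 5 each). As a share of all normalized counts this was 0.383%, 0.391%, 0.383%, 0.301% and 0.337% in the *Smad4del* mice A5216, A5217, A5218, A5447 and A5624. It was 0.267%, 0.332%, 0.301%, 0.319% and 0.286% in the *Ctl* mice A5215, A5219, A5221, A5626 and A5628. The 3 *Smad4del* mice numbered A52 were above every *Ctl* mouse, A5624 was just above the highest of them, and A5447 lay among them. In bulk samples, fewer cells of a type and less RNA per cell cannot be told apart.

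**Figure D2:**
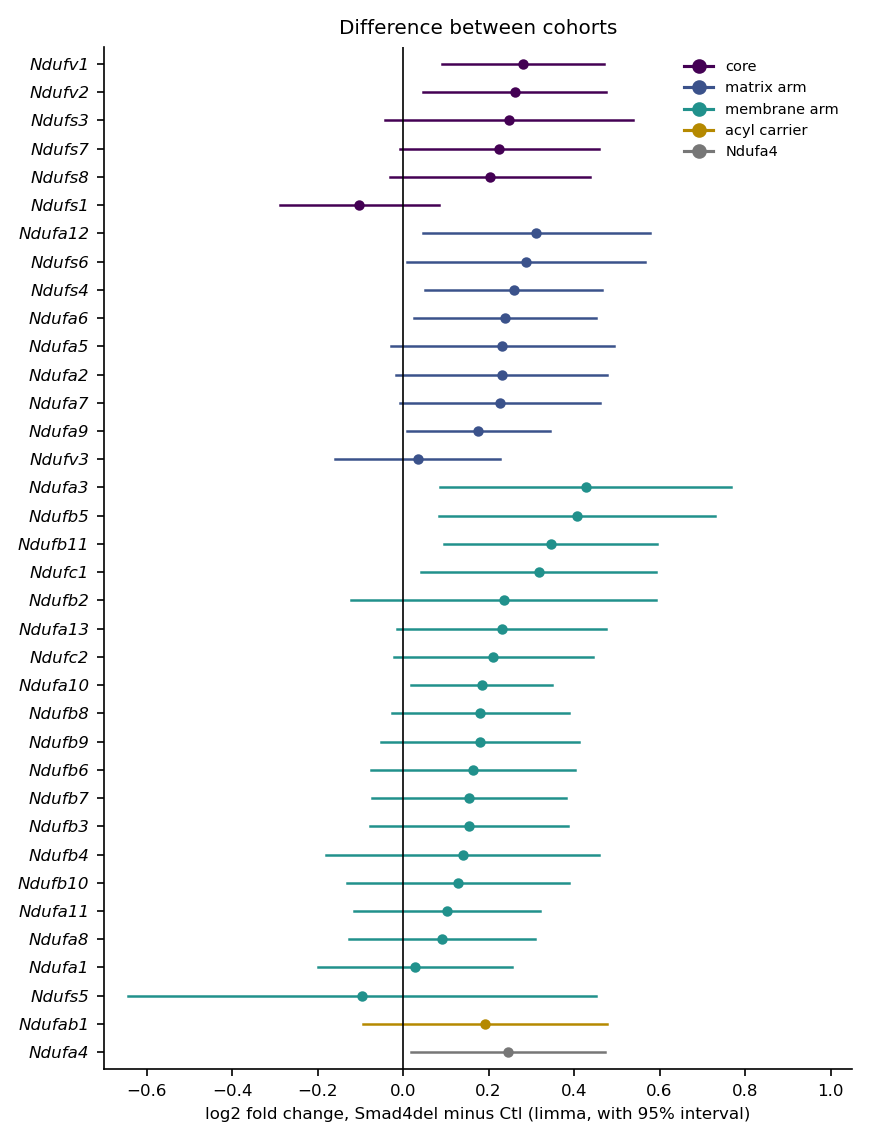
Log2 fold change (*Smad4del* minus *Ctl*, limma, horizontal axis) of 36 subunits with its 95% interval, coloured by position in the complex. Points run from -0.10 (*Ndufs1*) to 0.43 (*Ndufa3*), 34 of 36 lie above 0, and 0 passed the test after adjustment.

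Of the 7 core subunits encoded in the nucleus, 0 passed the test and 6 had a log2 fold change above 0 (median 0.23). *Ndufv1*, on chromosome 19 (4007384 to 4012806, GRCm38), binds NADH and the flavin that first accepts its electrons. It had 2973, 3452, 3343, 2623 and 3006 normalized counts in the *Smad4del* mice A5216, A5217, A5218, A5447 and A5624, against 2441, 2633, 2546, 2656 and 2359 in the *Ctl* mice A5215, A5219, A5221, A5626 and A5628. The cohorts overlapped only through A5447, which lay below 2 *Ctl* mice. With 3080 ± 329 normalized counts in *Smad4del* mice and 2527 ± 126 in *Ctl* mice (SD, n = 5 each), *Ndufv1* had the smallest p of the family, at a log2 fold change of 0.28 (SE 0.0866, limma adjusted p = 0.0683).

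*Ndufv2*, which holds an iron-sulphur cluster beside the flavin, had 2680, 2673, 2775, 2219 and 2166 normalized counts in *Smad4del* mice, against 1890, 2263, 2049, 2280 and 1937 in *Ctl* mice (mice in the same order here and from here on). Here the A52 *Smad4del* mice were the highest, and A5447 and A5624 lay within the *Ctl* range (log2 fold change 0.26, SE 0.0981, limma adjusted p = 0.116). *Ndufs3*, which lies at the base of the matrix arm, had 1667, 1482, 1319, 1034 and 1092 normalized counts in *Smad4del* mice, against 1118, 1194, 992, 1145 and 1029 in *Ctl* mice. Its spread within *Smad4del* mice was wide, and A5447 and A5624 lay within the *Ctl* range (log2 fold change 0.25, SE 0.133, limma adjusted p = 0.249).

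*Ndufs7*, which carries the last cluster before ubiquinone, had 1943, 2127, 2402, 1576 and 1909 normalized counts in *Smad4del* mice, against 1664, 1758, 1683, 1782 and 1559 in *Ctl* mice. All *Smad4del* mice but A5447 were above every *Ctl* mouse (log2 fold change 0.23, SE 0.107, limma adjusted p = 0.196). *Ndufs8*, which holds the clusters that pass electrons on to *Ndufs7*, had 2579, 2417, 2550, 1943 and 1987 normalized counts in *Smad4del* mice, against 2157, 2033, 1766, 2157 and 1818 in *Ctl* mice (log2 fold change 0.20, SE 0.107, limma adjusted p = 0.243). In *Ndufs8* A5447 and A5624 lay within the *Ctl* range.

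*Ndufs1*, the largest core subunit and the carrier of several iron-sulphur clusters, was the exception in sign. It had 1580, 1924, 1632, 1641 and 1665 normalized counts in *Smad4del* mice, against 1921, 1588, 1806, 1902 and 1843 in *Ctl* mice. All *Smad4del* mice but A5217 lay below all *Ctl* mice but A5219, and the cohort difference (log2 fold change -0.10, SE 0.0853, 95% interval -0.29 to 0.084) did not pass the test (limma adjusted p = 0.462).

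**Figure D3:**
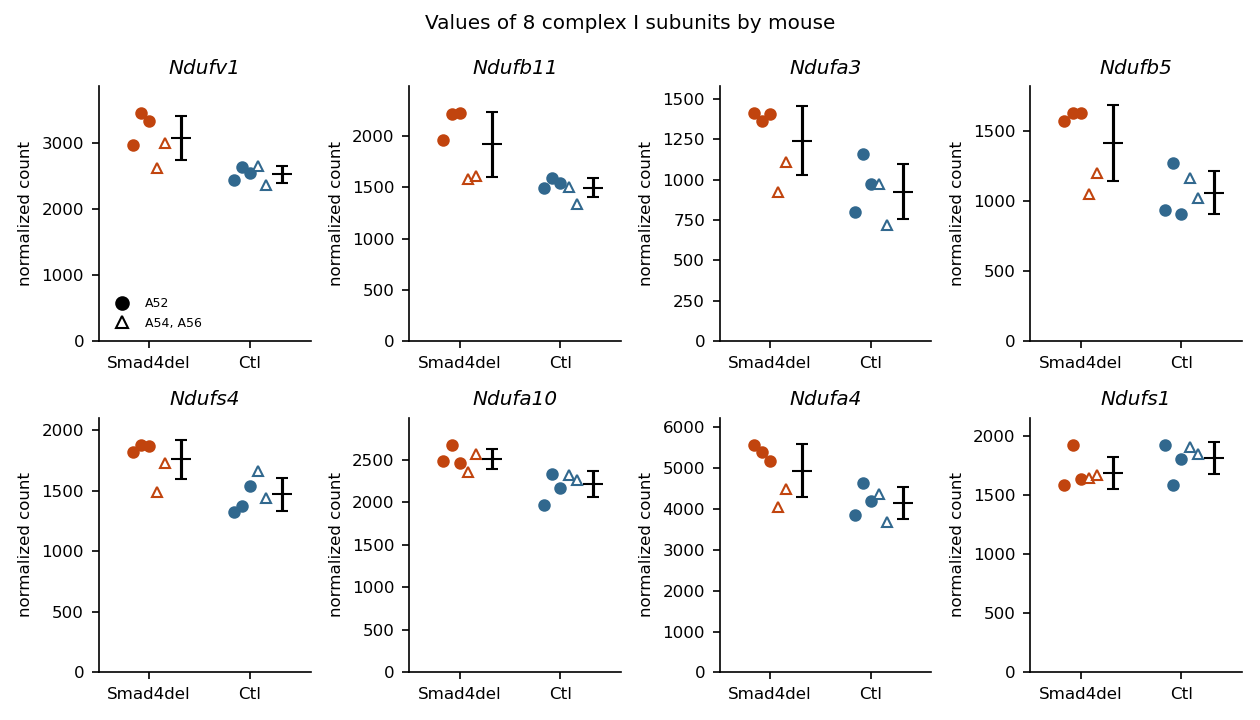
Normalized counts (vertical axes, from 0) of 8 subunits by mouse, *Smad4del* left of *Ctl*; filled circles are mice numbered A52, open triangles mice numbered A54 or A56, and bars the mean ± SD of 5 mice. In *Ndufa3*, *Ndufb5* and *Ndufb11* the filled *Smad4del* points lie above all others, *Ndufa10* is separated between cohorts, and *Ndufs1* has a lower *Smad4del* mean.

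All 9 accessory subunits of the matrix arm had a log2 fold change above 0 (median 0.23, range 0.034 to 0.31) and 0 passed the test. *Ndufs4*, whose loss in mice gives a fatal brain disease like Leigh syndrome, had 1820, 1877, 1868, 1489 and 1731 normalized counts in *Smad4del* mice, against 1325, 1376, 1534, 1663 and 1441 in *Ctl* mice. A5447 was below 2 *Ctl* mice and the other 4 were above all of them (log2 fold change 0.26, SE 0.0948, limma adjusted p = 0.108). *Ndufa12*, which replaces the assembly factor *Ndufaf2* in the finished arm, averaged 1126 ± 174 normalized counts in *Smad4del* mice and 903 ± 92.0 in *Ctl* mice (log2 fold change 0.31, limma adjusted p = 0.128). *Ndufs6*, a zinc-binding subunit, averaged 1488 ± 174 and 1225 ± 194 in *Smad4del* and *Ctl* mice (SD, n = 5 each; log2 fold change 0.29, limma adjusted p = 0.169). *Ndufa9*, which sits near the ubiquinone site, had a log2 fold change of 0.18, and *Ndufa6*, a LYR motif subunit that binds the acyl carrier protein, one of 0.24. *Ndufv3*, a small subunit beside the NADH site, was nearly level at 1172 ± 84.4 normalized counts in *Smad4del* mice and 1144 ± 85.5 in *Ctl* mice (log2 fold change 0.03, limma adjusted p = 0.835).

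Of the 19 accessory subunits of the membrane arm, 18 had a log2 fold change above 0 (median 0.18) and 0 passed the test. The largest difference of the family was that of *Ndufa3*, a small subunit of the proximal part of the arm, on chromosome 7 (3617373 to 3620327). It had 1412, 1366, 1405, 927 and 1108 normalized counts in *Smad4del* mice, against 799, 1158, 971, 974 and 722 in *Ctl* mice. Its log2 fold change was 0.43 (SE 0.156, 95% interval 0.087 to 0.77, limma adjusted p = 0.107), with A5447 and A5624 among the *Ctl* mice and the other 3 *Smad4del* mice above them.

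*Ndufb5*, of the distal part, on chromosome 3 (32736990 to 32751566), had 1573, 1628, 1629, 1053 and 1204 normalized counts in *Smad4del* mice, against 937, 1275, 906, 1165 and 1022 in *Ctl* mice. Its pattern was that of *Ndufa3*, with a log2 fold change of 0.41 (SE 0.148, limma adjusted p = 0.107). *Ndufb11*, an X-linked subunit of the distal part (chromosome X, 20615326 to 20617619), had 1968, 2221, 2224, 1581 and 1612 normalized counts in *Smad4del* mice, against 1497, 1596, 1546, 1506 and 1342 in *Ctl* mice. Only A5447 overlapped the *Ctl* mice, below 1 of them (log2 fold change 0.35, SE 0.114, limma adjusted p = 0.0825). With the number series as a second term *Ndufb11* passed (limma adjusted p = 0.0375), as 1 of 37 subunits, where 2.66% of all genes were higher. *Ndufc1*, a single-helix subunit, averaged 1166 ± 185 in *Smad4del* mice and 930 ± 99.9 normalized counts in *Ctl* mice (log2 fold change 0.32, limma adjusted p = 0.134).

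*Ndufa10*, a subunit related to nucleoside kinases, was the 1 member of 37 whose cohorts did not overlap, while 3.5% of all genes tested had no overlap with *Smad4del* higher. It had 2487, 2675, 2460, 2354 and 2570 normalized counts in *Smad4del* mice, against 1963, 2333, 2174, 2326 and 2261 in *Ctl* mice. The difference was small (log2 fold change 0.18, SE 0.0755). The exact two-sided permutation test gave the smallest p that 5 mice against 5 allow (0.00794). That value follows from the lack of overlap by which *Ndufa10* was picked, and adds nothing to it. The limma adjusted p was 0.143.

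At the other end, *Ndufa1*, an X-linked subunit needed for assembly of the membrane arm, had 1524, 1382, 1323, 1166 and 1132 normalized counts in *Smad4del* mice, against 1259, 1370, 1340, 1307 and 1105 in *Ctl* mice (log2 fold change 0.03, SE 0.104, limma adjusted p = 0.890). *Ndufa8* and *Ndufa11*, 2 further membrane arm subunits, had log2 fold changes of 0.09 and 0.10. *Ndufs5*, which faces the intermembrane space, had the lowest mean of the family, with 50.8, 59.9, 47.7, 47.9 and 53.2 normalized counts in *Smad4del* mice, against 66.4, 65.4, 52.7, 53.7 and 42.2 in *Ctl* mice. Its log2 fold change of -0.10 had an SE of 0.251 (limma adjusted p = 0.837) and was 0.16 under quantile scaling. The remaining membrane arm subunits, including *Ndufa13* (also known as Grim19) and the LYR motif subunit *Ndufb9*, lay between 0.13 and 0.23.

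*Ndufab1*, the mitochondrial acyl carrier protein, which also serves fatty acid and lipoic acid synthesis, averaged 748 ± 104 normalized counts in *Smad4del* mice and 655 ± 90.3 in *Ctl* mice (log2 fold change 0.19, limma adjusted p = 0.364). *Ndufa4*, named as a complex I subunit and later placed in complex IV, was the most abundant member. It had 5564, 5390, 5171, 4036 and 4487 normalized counts in *Smad4del* mice, against 3853, 4642, 4198, 4353 and 3681 in *Ctl* mice (log2 fold change 0.24, SE 0.104, limma adjusted p = 0.154). Again A5447 and A5624 lay within the *Ctl* range.

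The same 3 mice stood out gene after gene. Of the 37 subunits, the highest of the 10 values was in A5217 in 16, A5218 in 11 and A5216 in 8, with 1 each in the *Ctl* mice A5215 and A5626, and 0 in A5447 and A5624. The lowest value was in *Ctl* mouse A5628 in 19, A5215 in 9 and A5221 in 6. In A5216, A5217 and A5218, 35, 37 and 35 subunits were above the median of the 10 mice, against 3 in A5447 and 18 in A5624. In the *Ctl* mice A5215, A5219, A5221, A5626 and A5628 the number was 3, 25, 7, 18 and 4. The mean level of the family was 10.55, 10.61 and 10.57 in the A52 *Smad4del* mice, 10.24 in A5447 and 10.35 in A5624, and 10.15 to 10.40 in *Ctl* mice.

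Within the mice numbered A52 (3 against 3) the median log2 fold change of the subunits was 0.31, and -0.021 over all genes tested. Here 27 of 37 subunits did not overlap between cohorts, all higher in *Smad4del* mice, against 14.9% of all genes. By limma 0 subunits passed after adjustment, where only 9 of all 14870 genes tested were higher, so this 0 says little about the subunits. Within the mice numbered A54 and A56 (2 against 2) the median was 0.061, and 0.0066 over all genes tested, and 29 of 37 subunits were above 0. Here 2 subunits were higher in *Smad4del* mice without overlap, against 21.2% of all genes. *Ndufa8* and *Ndufs1* were lower in *Smad4del* mice without overlap. The share of all genes in that direction was not taken, so nothing is read from these 2. The difference between the series itself was tested as an interaction in limma, where 0 subunits and 0 genes passed after adjustment. At an unadjusted limma p of 0.05 it took 3 subunits, against 4.91% of all genes. They included *Ndufb5* (limma unadjusted p = 0.0247) and *Ndufs3* (limma unadjusted p = 0.0411). *Ndufb5* had a log2 fold change of 0.65 in the A52 mice and 0.04 in the others. The difference was above 0 in 36 of 37 subunits, with a median of 0.26, and its median over all genes tested was -0.0012. This split of the mice was added after their values were seen.

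**Figure D4:**
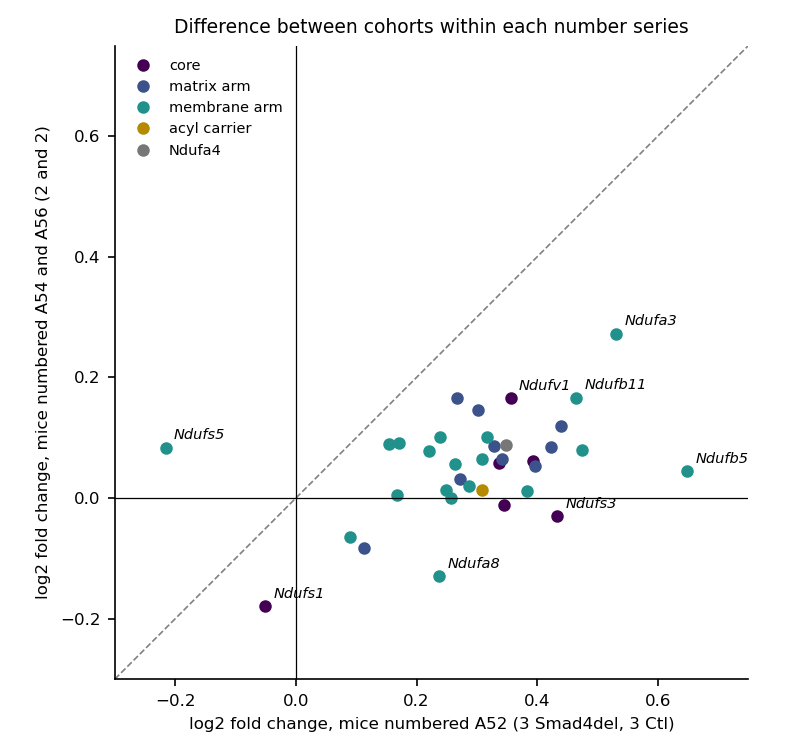
Log2 fold change (*Smad4del* minus *Ctl*) of 36 subunits in the mice numbered A52 (horizontal axis, 3 against 3) and in those numbered A54 and A56 (vertical axis, 2 against 2); the dashed line marks equal values. Of 36 points 35 lie below the line, and *Ndufs5* lies above it.

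The count of calls changed with 1 mouse. Without *Smad4del* mouse A5447, 6 subunits were higher by limma (*Ndufa3*, *Ndufb5*, *Ndufb11*, *Ndufc1*, *Ndufs4* and *Ndufv1*), where 3.79% of all genes were, and without any other mouse 0 were. Marker levels of other cells also differed among these mice. Mean macrophage marker levels were 11.82, 9.47 and 9.70 in the A52 *Smad4del* mice, 7.13 in A5447 and 7.74 in A5624, and endothelial levels 9.46, 9.12 and 8.66 in the A52 *Smad4del* mice, 9.69 in A5447 and 9.98 in A5624. Mean hepatocyte marker levels were 11.03, 11.23 and 9.99 in the A52 *Smad4del* mice, 9.95 in A5447 and 10.78 in A5624. With the endothelial level as a second term, which did not overlap between cohorts, the median log2 fold change of the subunits was -0.071. With the macrophage level as the term it was 0.32, and with the hepatocyte level 0.18.

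The partners of these subunits were read from lists of the same pathway. Of 15 assembly factors tested, which build complex I but leave the finished enzyme, 0 passed and 14 had a log2 fold change above 0 (median 0.24). *Ndufaf8*, a partner of the assembly factor *Ndufaf5*, averaged 318 ± 33.2 normalized counts in *Smad4del* mice and 239 ± 37.6 in *Ctl* mice (log2 fold change 0.42, limma adjusted p = 0.102). *Ndufaf7*, a methyltransferase that acts on the complex during assembly, had a log2 fold change of 0.33 (limma adjusted p = 0.105).

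The complex I genes of mitochondrial DNA had the opposite sign. All 5 tested were below 0 (median -0.29), 0 passed, and *mt-Nd3* and *mt-Nd4l* were listed at 0. *mt-Nd1*, which completes the ubiquinone channel, had 27745, 19440, 16418, 16005 and 14693 normalized counts in *Smad4del* mice, against 23121, 21897, 31319, 18965 and 24557 in *Ctl* mice. Mice A5216 and A5217 overlapped the *Ctl* mice and the other 3 lay below them (log2 fold change -0.37, SE 0.176, limma adjusted p = 0.203).

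The other nuclear-encoded respiratory complexes had medians like that of complex I, and differences between complexes were not tested. The median log2 fold change was 0.22 over 4 genes of complex II, 0.24 over 9 of complex III, 0.23 over 10 of complex IV and 0.27 over 15 of complex V, with every one of these 38 genes above 0. Of the 38, 1 passed the test, where 2.43% of all genes tested were higher. *Atp5e*, the epsilon subunit of ATP synthase, was higher at 1956, 2065, 1898, 1574 and 1607 normalized counts in *Smad4del* mice, against 1212, 1570, 1288, 1523 and 1128 in *Ctl* mice, with no overlap (log2 fold change 0.44, SE 0.119, limma adjusted p = 0.0462). The smallest p of the other complexes were those of *Sdhc* (log2 fold change 0.35, limma adjusted p = 0.0638), *Uqcrfs1* (0.35, limma adjusted p = 0.0666) and *Cox6b1* (0.28, limma adjusted p = 0.0691).

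**Figure D5:**
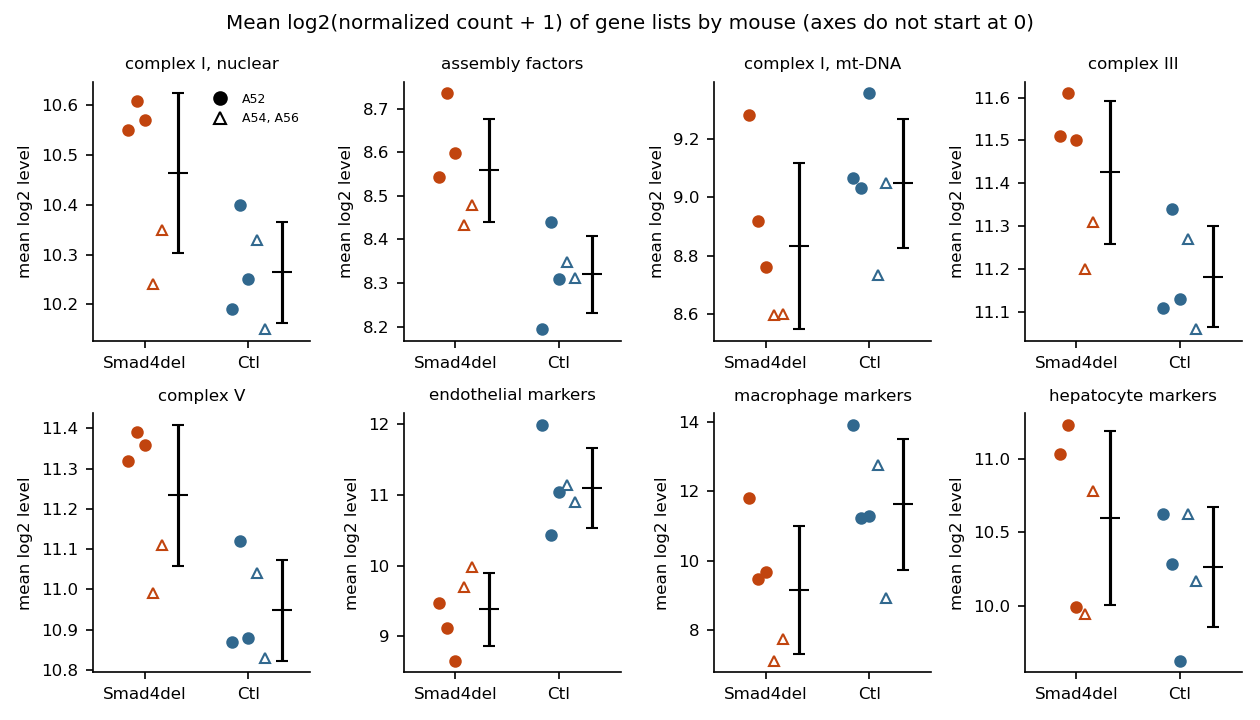
Mean log2(normalized count + 1) of 8 gene lists by mouse (vertical axes, not starting at 0), *Smad4del* left of *Ctl*; filled circles are mice numbered A52, open triangles mice numbered A54 or A56, and bars the mean ± SD of 5 mice. Complexes I, III and V have their 3 highest levels in the A52 *Smad4del* mice, and the endothelial level is separated between cohorts.

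Of 12 regulators of respiratory gene transcription 0 passed and 6 were above 0. *Ppargc1a*, the coactivator of mitochondrial biogenesis, had 259, 443, 390, 477 and 517 normalized counts in *Smad4del* mice, against 188, 284, 254, 223 and 362 in *Ctl* mice (log2 fold change 0.67, SE 0.221, limma adjusted p = 0.0843). Its 2 highest values were in A5447 and A5624, the *Smad4del* mice with the 2 lowest complex I levels. *Tfb1m*, a methyltransferase of the mitochondrial ribosome, had a log2 fold change of 0.71 (limma adjusted p = 0.0929).

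Promoters of 33 subunits, from RefSeq on GRCm38.p6, gave 35 windows of 250 bases before the start, which were searched on both strands for the letters of 6 motifs. AANATGGC, the core of the YY1 motif, was in 5 of the 35 windows of the subunits (14.3%, of *Ndufa7*, *Ndufb5*, *Ndufb10*, *Ndufb11* and *Ndufs8*), against 4.12% of those of all genes tested and 3.91% of all windows. CGCATGCG, the NRF1 core, was in 5.71% of windows of the subunits and 2.86% of those of all genes tested, and CAAGGTCA, of the estrogen-related receptors, in 2.86% and 0.952%. CCGGAAG, of ETS factors such as GABP, was in 8.57% and 12.2%, the E-box CACGTG in 8.57% and 7.89%, and CCAAT in 28.6% and 34.7%. No motif holds the letters of another. The ATG of AANATGGC is also the start codon, and a match is a description of letters, not a site of binding. Sites of 4 subunits are shown because this motif differed most in share from the other genes, with the motif in capitals. The site of *Ndufa7* and a second one of *Ndufb5* reach past the start of the GENCODE gene and are not shown. Each is written 5′ to 3′ on the strand where the motif was read, which is the strand of the gene except in *Ndufb10*.
Ndufb5, chr3:32736823-32736860: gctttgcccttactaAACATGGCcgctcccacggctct
Ndufb11, chrX:20617808-20617845: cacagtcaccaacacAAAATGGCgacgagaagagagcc
Ndufb10, chr17:24724599-24724636: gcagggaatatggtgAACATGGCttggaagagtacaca
Ndufs8, chr19:3912917-3912954: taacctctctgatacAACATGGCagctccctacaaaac
*Ndufb5* and *Ndufb11* had 2 of the 3 highest log2 fold changes of the family (0.41 and 0.35), while *Ndufa7*, *Ndufb10* and *Ndufs8* had 0.23, 0.13 and 0.20. *Yy1* itself averaged 334 ± 36.8 normalized counts in *Smad4del* mice and 314 ± 65.8 in *Ctl* mice (log2 fold change 0.11).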

How the data were processed

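RNA was analysed from sorted EPCAM+/CD45-/TER119- liver cells of 5 *Smad4del* and 5 *Ctl* mice. The deposited values (signal) are gene counts that the authors divided by 1 size factor per mouse with DESeq2 1.14.1 in R 3.3.2. Reads had been trimmed by Trimmomatic 0.36 and aligned to GRCm38.p5 by STAR, and the authors counted reads on GENCODE genes with featureCounts. The notes also name mm9. The authors counted with and without multi-mapping reads. Which of these counts the values hold is not stated in the sources. The labels tag the mice as cell lines, while the paper describes sorted cells, as taken here. Nothing in the labels gives batch or litter, so p-values measure the spread between these mice.

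Genes with a mean of at least 10 normalized counts (14870) were tested with limma 3.58.1 in R 4.3.3 on log2(normalized count + 1) with cohort as the only term, a trended prior and Benjamini-Hochberg adjustment at 0.05. Fold changes on this scale understate those of low genes. An exact two-sided permutation test was added for single members. All values (100%, relative tolerance 1e-06) were whole multiples of 1 read, and edgeR 4.0.16 and DESeq2 1.42.0 were run on the recovered reads as alternatives. In A5217 1 read is 0.998, too near 1 to exclude rounding, so both were also run on 9 mice. Other alternatives were pseudocounts of 0.5 and 10, no filter or a minimum of 50, quantile and median scaling, a second term (number series or marker level) and leaving out each mouse. Each number series alone and its interaction were added after seeing the data. The model fits were tested on simulated data.

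Members and lists were chosen with earlier results of these data known. Full values are given for the 5 members with the smallest p, the 3 highest and 3 lowest fold changes, the core subunits, the highest and lowest mean and, of other lists, called genes and up to 2 with the smallest p. *Ndufa10* and others were named after their values were seen. Positions and transcript lengths are from GENCODE M21 on GRCm38, which held 37 of 37 members. *Ndufb1* and 1 listed assembly factor were not analysed here, and 1 member is counted in the family but not reported singly here.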

Additional observations from a re-analysis of the deposited data

Results flagged for a closer look

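In *Ndufs1*, the core subunit with the lowest log2 fold change, *Smad4del* mouse A5217 stood apart from its cohort, with 1924 normalized counts against 1580 to 1665 in the other 4 *Smad4del* mice. On the scale of log2(normalized count + 1) its gap to the nearest mouse was 0.734 of the range of the cohort, above the critical value of 0.71. This was 1 flag in 76 cohort groups looked at, and chance alone flags about 1 in 20.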

How the results depend on the processing

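The count of subunits higher in *Smad4del* mice by limma, 0, was 1 under median scaling (*Ndufv1*, adjusted p = 0.0405, with 4.21% of all genes higher), 1 with the number series as a term (*Ndufb11*, adjusted p = 0.0375, with 2.66% of all genes higher) and 2 by DESeq2 (6.03% of all genes). It was 0 under the other alternatives and 0 to 6 when 1 mouse was left out, with 6 without *Smad4del* mouse A5447; the count lower was 0 throughout. The median log2 fold change was -0.07 with the endothelial level as a term and 0.061 in the mice numbered A54 and A56 alone. Under all other alternatives it was above 0, and 0.18 to 0.26 with 1 mouse left out. Leaving out 1 mouse leaves 4 against 5. The causes of these changes were not tested. The endothelial level did not overlap between cohorts, so that it and the cohort cannot be well separated in 1 fit. The stellate and fibroblast level and the mitosis level did not overlap either, and they were not used as terms. No paired analysis was possible because the mice of the cohorts share no numbers. Depth as a limit was not tested.

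With the endothelial level as a term the log2 fold change changed sign, without passing the test, in *Ndufa1* (-0.15), *Ndufa2* (-0.18), *Ndufa3* (-0.10), *Ndufa4* (-0.055), *Ndufa5* (-0.17), *Ndufa6* (-0.044), *Ndufa8* (-0.28), *Ndufa9* (-0.0069), *Ndufa11* (-0.19), *Ndufa12* (-0.18), *Ndufab1* (-0.31), *Ndufb2* (-0.31), *Ndufb3* (-0.084), *Ndufb4* (-0.12), *Ndufb5* (-0.16), *Ndufb6* (-0.12), *Ndufb7* (-0.10), *Ndufb8* (-0.027), *Ndufb9* (-0.14), *Ndufb10* (-0.083), *Ndufb11* (-0.0040), *Ndufc1* (-0.071), *Ndufc2* (-0.042), *Ndufs1* (0.011), *Ndufs5* (0.027), *Ndufs6* (-0.21), *Ndufs7* (-0.066), *Ndufv2* (-0.092) and *Ndufv3* (-0.044). In the mice numbered A54 and A56 alone it did so in *Ndufa1* (-0.065), *Ndufa8* (-0.13), *Ndufb3* (-0.00066), *Ndufs3* (-0.030), *Ndufs5* (0.084), *Ndufs8* (-0.012) and *Ndufv3* (-0.083). With the hepatocyte level as a term it did so in *Ndufa1* (-0.0021) and *Ndufv3* (-0.0067), and in *Ndufs5* with the macrophage level (0.046) and under quantile scaling (0.16). With 1 mouse left out, *Ndufa1* ranged from -0.030 (without *Smad4del* mouse A5216) to 0.077 and was -0.023 without *Ctl* mouse A5628, and *Ndufv3* ranged from -0.00022 (without A5628) to 0.072.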
